A study of Mus musculus with 12 samples.

Results

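The mouse oocyte small RNA table held 217 rows whose names start with a chromosome and a cytogenetic band, such as 3-qA2-617.1, out of 2030 rows in all. They were chosen by that name pattern alone. With the 250 rows named after genes they make up the 467 piRNA rows of the table. The last number of a name tells apart rows of the same locus, so that the 217 rows came from 100 loci, called band-named loci here. They lay in 53 bands on 18 chromosomes, and no row was named for chromosome 16, X or Y.

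Piwi-interacting RNAs (piRNAs) are small RNAs that guide PIWI proteins, and they are cut from long single-stranded precursor transcripts of discrete genomic loci. In the germ line they are best known for silencing transposons. In mice they are abundant in testis, where the loci of intergenic regions are most active in meiosis, while mouse oocytes also make small interfering RNAs and females tolerate loss of PIWI proteins. Locus names of this form are used for precursor transcripts that were assembled from mouse testis, and a row therefore counts reads that fall on such a transcript in the oocyte. The table gives no read length, so reads of piRNAs could not be separated from other fragments of the same transcripts.

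Oocytes were collected by hand from ovaries of unstimulated mice. The study concerns Khdc3, a maternal-effect gene of the subcortical maternal complex, and its effects over generations. Each of 3 groups had 4 libraries. The first group was wild type with wild type ancestors, and the second was Khdc3-null. Mice of the last group, the descendants, carried the wild type genotype themselves but had Khdc3-null grandfathers (their grandmothers were wild type). Whether libraries of a group derive from different animals is not in the labels, and p-values thus measure only the spread between libraries. No age, strain or oocyte stage was given in the labels.

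The unit is RPM (reads per 1000000 mapped reads), obtained by taking away the 1 that the authors had added to every value. It is not divided by transcript length, and the order of rows and loci is therefore an order of reads, not of transcript levels. Mapped reads ranged from 2918620 to 7640554 per library, and a count of 0 allows up to 1.03 RPM in the shallowest library (3 reads). Among microRNA markers of other cells, the summed level of 7 stroma and vessel hairpins was 9009 to 12315 RPM in wild type, 9407 to 10708 RPM in Khdc3-null and 6970 to 8390 RPM in descendant libraries. The 6 granulosa hairpins summed to 2710 to 3774, 2784 to 3913 and 2523 to 3280 RPM in the same order, and the 5 hairpins of male germ cells to 1739 to 2050, 1666 to 2038 and 1837 to 3040 RPM. The 3 erythrocyte hairpins, 1 of them at 0 in some libraries, reached at most 318 RPM in sum, in a Khdc3-null library, and the 3 leukocyte hairpins at most 123 RPM. Each stroma marker was detected in every library, and the descendant libraries were lower in their sum than every other library. Whether these cells contribute to the reads on band-named rows was not tested. The table lists no mRNA, so oocyte marker transcripts could not be examined.

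Band-named rows took 4.59% to 5.63% of the listed reads. In wild type the shares of the 4 libraries were 5.31%, 5.29%, 5.63% and 5.21%, in Khdc3-null 4.59%, 4.95%, 5.53% and 4.98%, and in descendants 4.75%, 5.42%, 5.29% and 4.71%. The groups overlapped, with means of 5.36% ± 0.18, 5.01% ± 0.39 and 5.04% ± 0.37 in that order (SD, n = 4 each). Khdc3-null replicate 1 had the lowest share of all libraries, and without it the Khdc3-null mean was 5.15% ± 0.33 (SD, n = 3). Gene-named rows held 14.4% ± 0.74 (SD, n = 12) of listed reads, and the ratio of gene-named to band-named reads was 2.69 ± 0.07 in wild type, 2.87 ± 0.07 in Khdc3-null and 2.86 ± 0.19 in descendants (SD, n = 4 each). The highest wild type ratio, 2.77, lay below the lowest Khdc3-null ratio, 2.80, while the descendant libraries ran from 2.61 to 3.06 and overlapped both. As sums over chosen rows, these shares and ratios are given without a test.

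Every locus had reads in every library, and so did nearly all rows. Of the 217 rows, 214 had at least 1 read in each of the 12 libraries, 198 had at least 10 reads in each, and 144 at least 100. The exceptions were 11-qE1-3997.3, without reads in 1 library, and 1-qD-2017.1 and 4-qD3-2082.4, each without reads in 5 libraries. The latter pair were also the only band-named rows that reached 1.61 RPM, or 10 reads at the median depth, in fewer than 4 libraries, and all tests below therefore cover 215 rows. The order of the rows by abundance was nearly the same in every library. Spearman's rho between a library and the mean of the other 11, across the 217 rows, was between 0.983 (Khdc3-null replicate 1) and 0.996 (wild type replicate 4). This is a correlation across rows, which are not independent of each other.

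The most abundant row was 2-qE5-4.1, which is also the only row of its locus and of its band. It was measured at 1511, 1566, 1708 and 1556 RPM in wild type, at 1055, 1350, 1535 and 1539 RPM in Khdc3-null and at 1670, 1449, 1418 and 1305 RPM in descendant libraries. The low value belongs to Khdc3-null replicate 1, and the 3 groups overlapped. The next rows were both rows of 3-qA2-617, with 1254 and 1250 RPM on average, then 7-qD1-19431.2 with 1243 RPM, 7-qD1-9417.1 with 1173 RPM, and both rows of 12-qE-23911 with 1059 and 1041 RPM. The last of the 10 most abundant rows were 5-qG2-950.1 with 983 RPM, 6-qF3-28913.1 with 972 RPM and 5-qF-14508.2 with 890 RPM. Which row came first differed between libraries: 2-qE5-4.1 did so in 7 of 12, 7-qD1-19431.2 in 3 and 3-qA2-617.1 in 2. At the other end, 24 rows averaged under 10 RPM, and 108 reached 100 RPM or more.

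With the rows of a locus added up, 3-qA2-617 on chromosome 3 took the largest share. It had 2388, 2892, 3502 and 2592 RPM in wild type, 1937, 2093, 2489 and 1964 RPM in Khdc3-null and 2082, 3469, 2674 and 1976 RPM in descendant libraries. Wild type replicate 3 and descendant replicate 2 stood highest, and the groups overlapped. 12-qE-23911 followed with 2101 ± 196 RPM (SD, n = 12), and was the steadiest of the 10 leading loci at a within-group coefficient of variation (CV) of 8.14%. Its wild type libraries, at 2133 to 2277 RPM, all lay above its Khdc3-null libraries, at 1722 to 2027 RPM. Descendants, at 1914 to 2452 RPM, overlapped both. The log2 difference of Khdc3-null from wild type was -0.19 ± 0.10 (SE, limma adjusted p = 0.929 with rows of a locus summed). Next came 13-qA5-464 with 2055 ± 284 RPM (SD, n = 12), 7-qD1-19431 with 1874 ± 267 RPM (SD, n = 12) and 13-qA5-208 with 1674 ± 317 RPM (SD, n = 12). Between 3-qA2-617 and 12-qE-23911 the means differed by less than the SD of the former but by more than that of the latter, and each later mean lay within 1 SD of the one before it. 3-qA2-617 came first in 9 of 12 libraries, with 12-qE-23911 first in 2 and 7-qD1-19431 in 1.

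**Figure D1:**
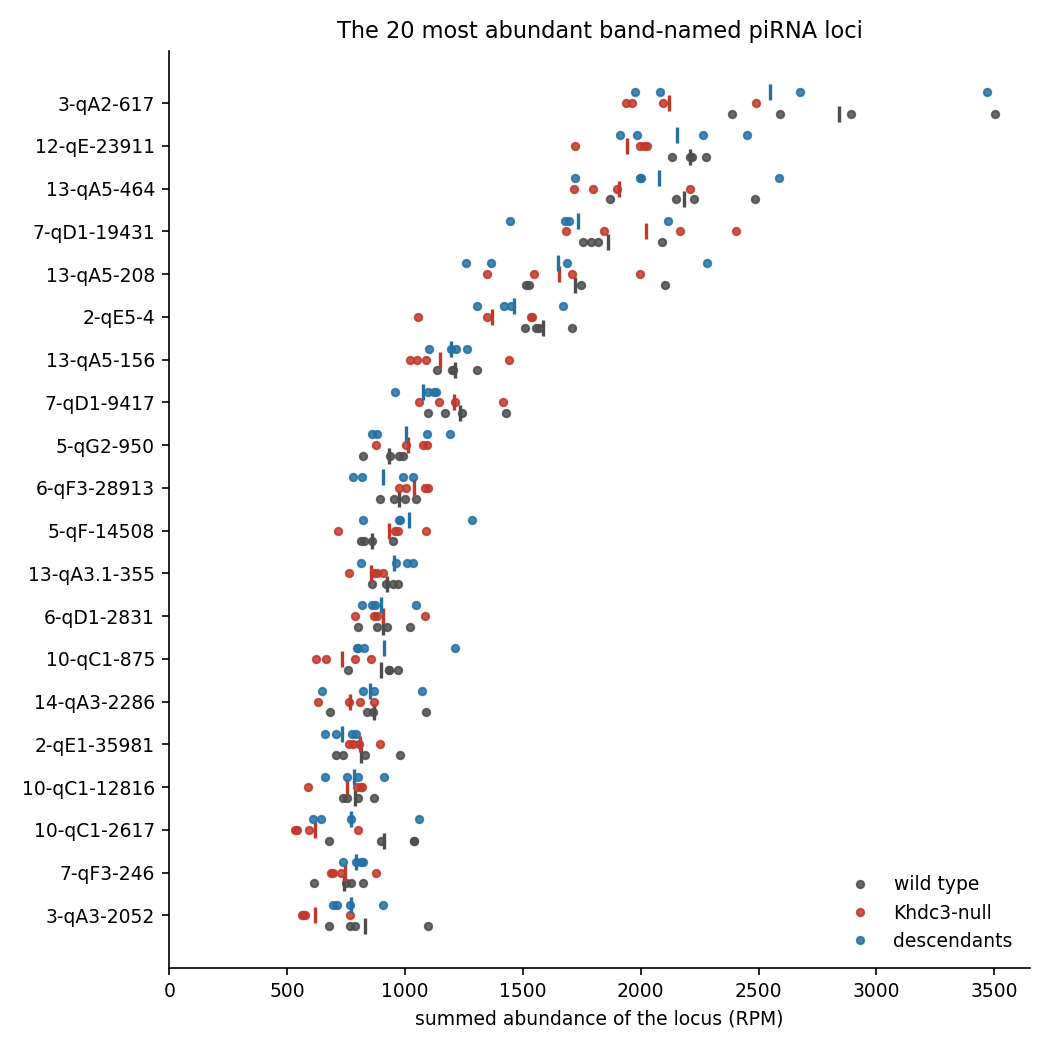
Summed RPM of the 20 most abundant band-named piRNA loci (rows of a locus added), with 1 point for each of the 12 libraries coloured by group and a vertical bar at each group mean. The spread of 3-qA2-617, from 1937 to 3502 RPM, is wide beside that of 12-qE-23911, and the groups overlap at nearly every locus.

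Reads were spread over many loci rather than held by a single one. The most abundant row carried 3.14% of band-named reads and the 10 most abundant rows 24.2%. It took 30 rows, 13.8% of the 217, to reach 50% of the reads and 101 rows to reach 90%. By locus, the first held 5.34%, the first 10 held 34.1%, 19 loci reached 50% and 56 reached 90%. The share of the 10 most abundant rows was between 22.97% (descendant replicate 2) and 25% (Khdc3-null replicate 4) over the 12 libraries, and the number of rows needed for 50% was 28 to 30 in each of them. The share was 24.3% ± 0.22 in wild type, 24.2% ± 0.59 in Khdc3-null and 24.0% ± 0.69 in descendants (SD, n = 4 each), with overlapping groups.

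The gene-named rows were more concentrated and more abundant. Their first 10 rows held 31.5% of their reads and 23 rows (9.20% of 250) held 50%. By locus, 15 of 114 held 50% and the leading locus, pi-Lpp, held 8.33%. The median row had 99.9 RPM among band-named and 214 RPM among gene-named rows, and 8 of 100 band-named loci against 37 of 114 gene-named loci passed 1000 RPM. These are descriptions of the 2 lists in the same 12 libraries, and differences in transcript length cannot be told apart from differences in level.

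**Figure D2:**
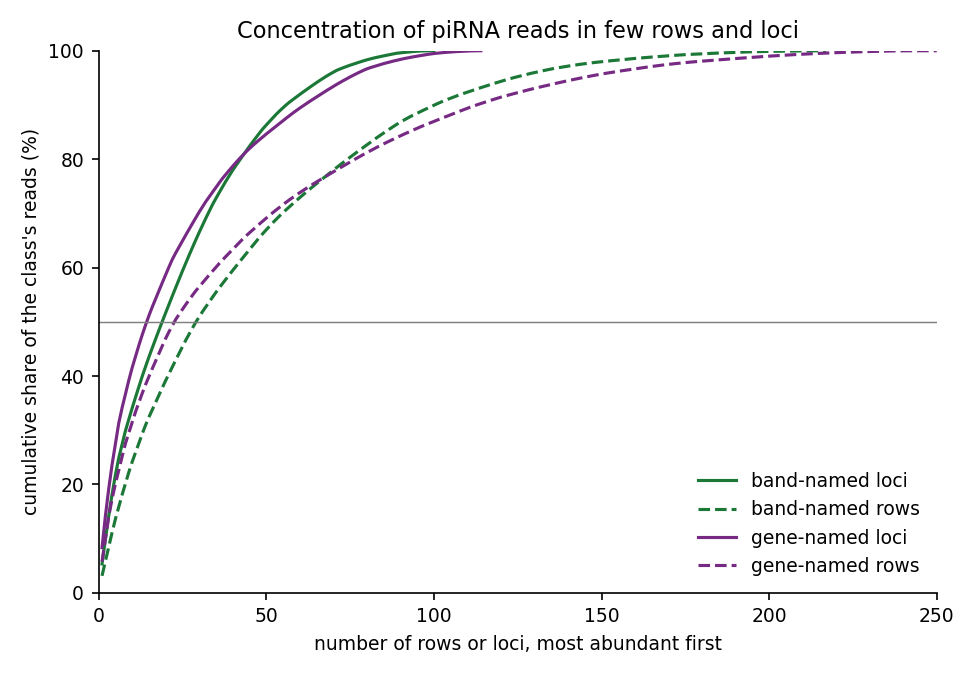
Cumulative share of a class's reads (percent) against the number of rows (dashed) or loci (solid), from the most abundant down, for band-named (green) and gene-named (purple) piRNAs. The grey line marks 50%, which is crossed at 30 band-named and 23 gene-named rows, and at 19 band-named and 15 gene-named loci.

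By band, 13-qA5 led with 12 rows of 5 loci and 12.0% of band-named reads. Its sum was 5853 ± 620 RPM in wild type, 5409 ± 719 RPM in Khdc3-null and 5670 ± 881 RPM in descendants (SD, n = 4 each). The group means differed by less than the SD of each group. Band 7-qD1 followed with 3582 RPM from 4 loci, of which 7-qD1-19431 gave 52.3%. Band 10-qC1 came next with 2997 RPM from 5 loci, and no locus of it gave more than 28.2%. Bands 3-qA2 and 2-qE5, in contrast, rested on a single locus each, and 12-qE drew 92.0% of its 2284 RPM from 12-qE-23911. In all, 9 of the 53 bands held 50% of the reads, and 25 bands held a single locus. The lowest was 1-qE2.3, whose only row 1-qE2.3-2.1 averaged 3.43 RPM.

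By chromosome, 13, 7 and 10 came first with 15.3%, 12.8% and 9.87% of the reads. They also had 8, 10 and 11 loci, but the number of loci did not set the order everywhere. Chromosome 3 reached 3244 RPM with 2 loci, 1622 RPM per locus, whereas chromosome 4 reached 728 RPM with 7 loci, 104 RPM per locus. Chromosome 1, with 5 loci and 241 RPM, and chromosome 19, with 1 locus and 61.1 RPM, were lowest. The leading band of a chromosome gave at least 43.2% of that chromosome's sum on all 18: 4-qB3 on chromosome 4 was at that lower end, 13-qA5 gave 78.7% of chromosome 13, and 17-qA3.3 gave 79.3% of chromosome 17. Other leading bands were 5-qF (43.4%), 1-qE3 (46.8%), 15-qE1 (47.6%), 2-qE5 (48.3%), 9-qA5.3 (49.2%), 6-qF3 (56.5%), 7-qD1 (59.7%), 8-qC5 (59.9%), 10-qC1 (64.7%), 14-qA3 (72.0%), 3-qA2 (77.2%) and 11-qE1 (95.2%). On chromosomes 12, 18 and 19 all loci lay in 1 band.

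**Figure D3:**
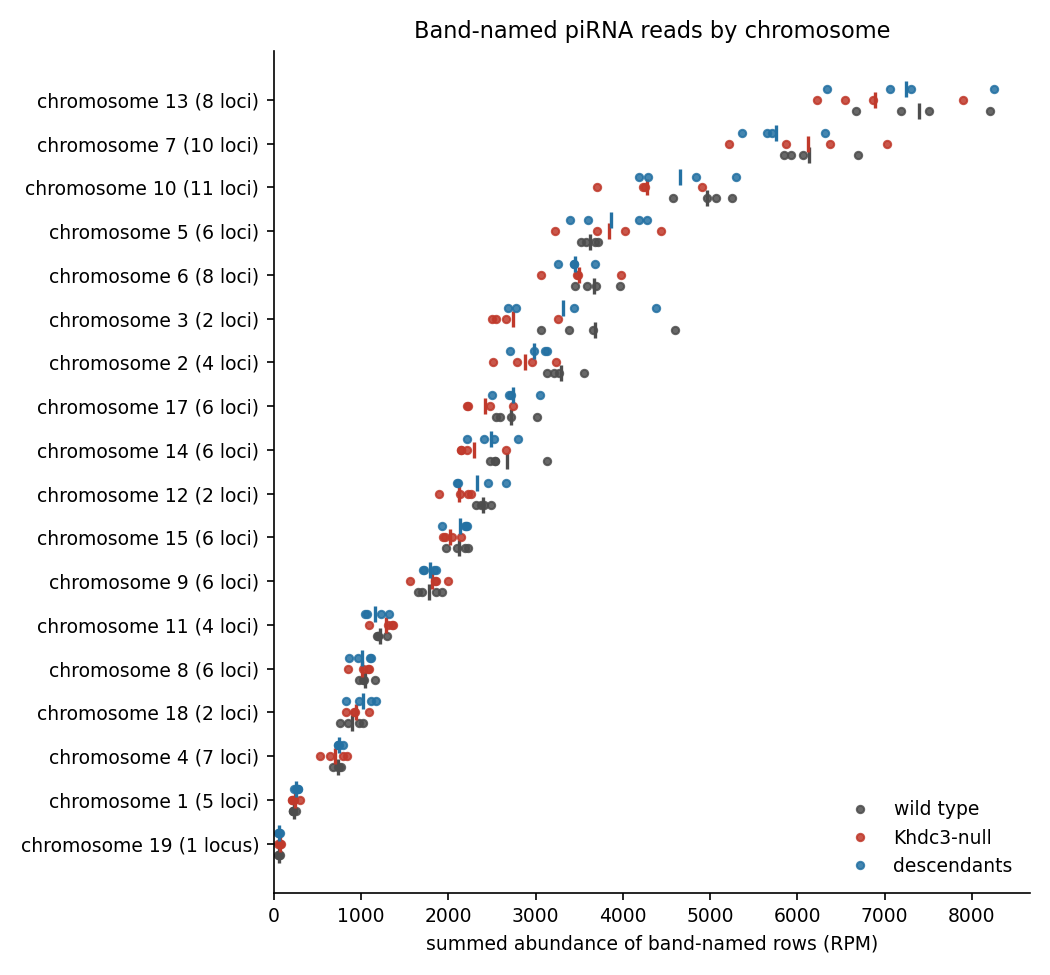
Summed RPM of band-named rows on each of the 18 chromosomes that have any, with 1 point per library coloured by group and a vertical bar at each group mean. Chromosome 13, with 8 loci, stands first, chromosome 3 reaches 3244 RPM from 2 loci, and chromosomes 1 and 19 lie near 0.

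The rows of a locus repeated each other to very different degrees. Of the 100 loci, 30 had a single row and 70 had several, among them 41 with 2 rows and 1 with 7. No pair of rows was identical in all libraries. In 23 of the 70 loci, the rows were within 10% of each other in total reads. A dispersion index (chi-square per degree of freedom) compared the split between rows over the 12 libraries with a constant split, and it is near 1 where libraries differ by counting error alone. The median index of these 23 loci was 1.07, and 21 of them were under 2. At 3-qA2-617, for example, its 178059 reads divided into 49.95% and 50.05%, and at 2-qG3-1029 into 49.8% and 50.2%. Between libraries, the rows of most such loci departed from a constant split by little more than counting error, and such rows cannot be taken as separate measurements. How reads that match several rows were assigned was not stated, and its part in this equality was not tested.

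In 15 loci the largest row had more than 5 times the reads of the smallest. At 14-qA3-2286 the rows held 98.6% and 1.42% of 58240 reads, and at 5-qF-14508 they held 94.9% and 5.07% of 66116 reads. The median index of the 47 loci outside the near-equal ones was 6.17 and the largest was 26.8, at 14-qA3-284, so that the proportions of rows varied between libraries by more than counting error in most of them.

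Most of the spread between libraries of a group exceeded counting error. The within-group CV of the 215 rows had a median of 19.1%, against 4.17% from counting reads, and it was more than 2 times the counting CV in 196 rows. The 108 rows of 100 RPM or more had a median CV of 14.0% and the 22 tested rows under 10 RPM one of 49.9%. Wild type libraries agreed best, with a median of 13.7% against 18.2% in Khdc3-null and 18.8% in descendants. From the lowest to the highest of 12 libraries, 119 of 215 rows moved less than 2-fold and 47 less than 1.5-fold. Gene-named rows of 100 RPM or more had a median CV of 12.0%.

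The steadiest rows were the 3 rows of 10-qB4-6488, 13-qA3.1-355.1 and 17-qA3.3-27363.1. Row 10-qB4-6488.3 had a CV of 5.04% and was measured at 215, 225, 240 and 229 RPM in wild type, at 224, 259, 246 and 249 RPM in Khdc3-null and at 213, 229, 234 and 218 RPM in descendants. Its 12 values stayed within a range of 213 to 259 RPM. The most variable tested rows were all scarce, with 1-qD-2017.2 at a CV of 124%, 11-qE1-3997.3 at 123%, 11-qB1.3-590.1 at 108%, 11-qB1.3-590.2 at 91.4% and 14-qA3-284.1 at 86.6%. Row 1-qD-2017.2 reached 8.50 RPM in Khdc3-null replicate 4 but lay between 0.526 and 1.02 RPM in the other 3 libraries of that group. Replicates 1 and 2, at 0.526 and 0.685 RPM, lay below the 0.789 and 1.03 RPM that a count of 0 allows there. Replicate 3, at 1.02 RPM, lay above its own limit of 0.438 RPM. Among loci of 100 RPM or more the widest were 1-qE3-706 at 27.2% and 6-qC3-2394 at 26.2%.

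**Figure D4:**
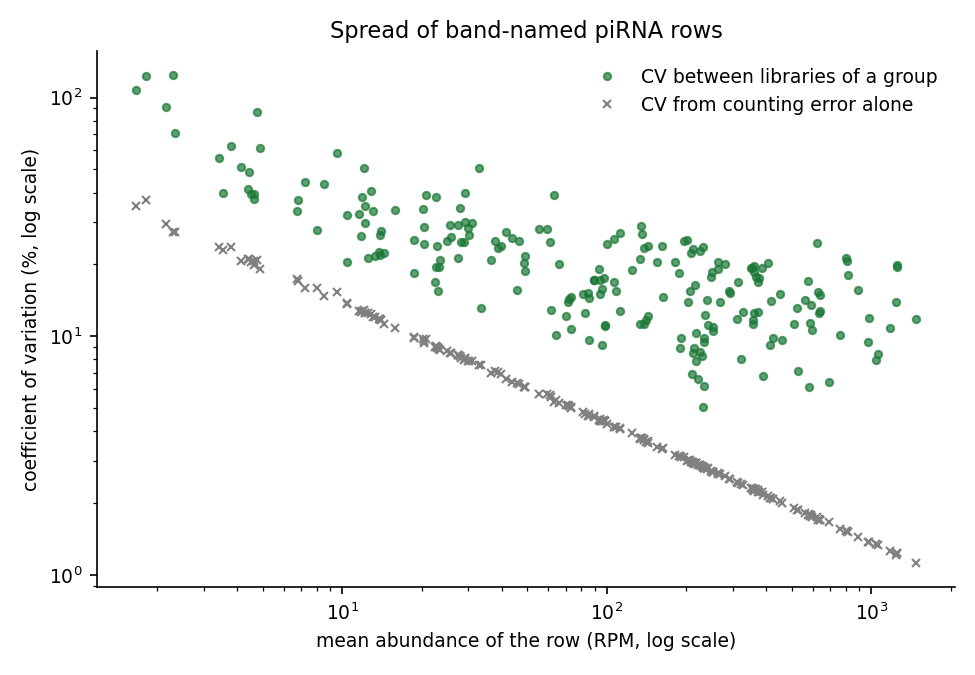
Within-group CV of each of the 215 tested band-named rows (green points, percent, log scale) against its mean RPM (log scale), with the CV that counting reads alone would give (grey crosses). The observed CV falls with abundance from a median of 49.9% under 10 RPM to 14.0% at 100 RPM or more and lies above the crosses.

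Some loci varied together between libraries. For the 89 loci of 50 RPM or more, the correlation of log2(RPM + 1) over the 12 libraries was computed for 3916 pairs. The median Pearson's r was 0.11, and 16 pairs exceeded 0.9. Of these, 15 joined different chromosomes, but so do most of all pairs, and the share over all pairs was not computed. Of the 9 loci in these pairs, 7 formed a connected set on 6 chromosomes: 3-qA2-617, 13-qA5-464, 10-qC1-2617, 10-qC1-1527, 14-qA3-2286, 2-qG3-1029 and 6-qC3-6258. The remaining pair was 5-qG2-2301 with 7-qD1-19431 (r = 0.93, Spearman's rho = 0.80). The closest pair was 2-qG3-1029 with 3-qA2-617 (r = 0.98, rho = 0.92, and r = 0.97 on deviations from group means). The set was picked from these values, so they describe these 12 libraries and carry no test. The 12 libraries share their kits and scaling, and the labels give no batch.

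Together the 7 loci held 16.4% of band-named reads. Their sum was 7059, 8766, 10200 and 8128 RPM in wild type, 6408, 6514, 8012 and 5992 RPM in Khdc3-null and 6794, 10310, 7915 and 6142 RPM in descendant libraries. Wild type replicate 3 and descendant replicate 2 were highest and Khdc3-null replicate 4 and descendant replicate 4 lowest, and the descendants alone ran from 6142 to 10310 RPM. The highest library was 1.72-fold above the lowest, against 1.25-fold for the sum of all other band-named rows. As the 7 loci were picked for moving together, their sum tends to range more widely than a sum of loci that vary apart. The median range of a single band-named locus was 1.74-fold. Of the 2 highest libraries, wild type replicate 3 had 4048534 mapped reads, fewer than all but 2 libraries, and descendant replicate 2 had the most, 7640554. What the loci share that could move them together was not tested. Without these 2 libraries, 5 of the 15 pairs of the set that had exceeded 0.9 remained over 0.9. Over these 15 pairs r ranged from 0.82 to 0.97, and pairs of the set at or below 0.9 were not included. The 5 pairs joined only 3-qA2-617, 2-qG3-1029, 10-qC1-1527 and 10-qC1-2617. None of the 15 pairs with 13-qA5-464, 14-qA3-2286 or 6-qC3-6258 remained over 0.9. The links of these loci among the 15 pairs thus depended on the 2 libraries at this limit. Of 106 gene-named loci, pi-Nr2c2 (r = 0.98) and pi-Ccrn4l (r = 0.91) also exceeded 0.9 with the mean of the set, while the median gene-named locus had r = -0.01.

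**Figure D5:**
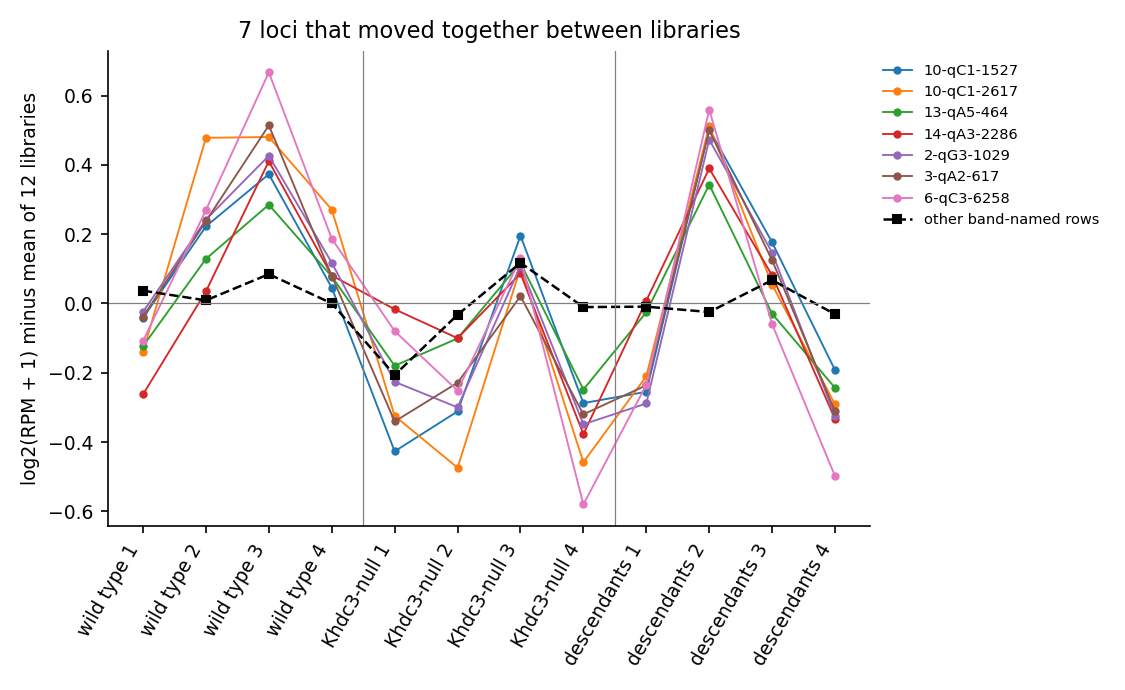
Deviation of log2(RPM + 1) from the mean of 12 libraries for each of 7 band-named loci (coloured) and for the sum of all other band-named rows (black squares), by library. Lines join the values of a locus and carry no order of libraries. All 7 are high in wild type replicate 3 and descendant replicate 2, and they were picked for moving together. The sum of the other rows moves over a 1.25-fold range.

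No band-named row differed between the groups after adjustment over the whole table. With limma on log2(RPM + 1), 0 of 215 rows had a Benjamini-Hochberg adjusted p under 0.05 in Khdc3-null against wild type, in descendants against wild type or in descendants against Khdc3-null, and 0% of all 1889 tested rows did in each. limma's F test for any difference among the 3 groups also called 0 rows (0% of all rows). The lowest adjusted p among band-named rows were 0.830, 0.946 and 0.658 in the 3 comparisons and 0.901 in the F test. limma-voom on the recovered reads called 0 band-named rows in each comparison as well. The comparisons share their groups 2 by 2 and are therefore not independent of each other.

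Most of these differences had intervals within 2-fold, and fewer had intervals within 1.5-fold. The 95% interval of the fold change stayed within 2-fold either way for 83.3% of band-named rows in Khdc3-null against wild type, 84.7% in descendants against wild type and 81.9% in descendants against Khdc3-null, compared with 56.2%, 55.1% and 54.3% of all rows. It stayed within 1.5-fold for 47.4%, 52.1% and 51.6%, compared with 27.1%, 25.8% and 23.4% of all rows. For the remaining band-named rows, the interval reached beyond these sizes in at least 1 direction. Rows of like abundance were not compared.

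In Khdc3-null against wild type, 13 band-named rows of 10 loci had an unadjusted p under 0.05 (1 higher, 12 lower), 6.05% against 5.03% of all rows. Counted by row, the share was thus near that of the table. limma-voom gave 12. The median difference was -0.10 on the log2 scale over band-named rows and -0.05 over all rows, and under median-of-ratios scaling it was -0.05 over band-named rows and near 0 over all rows. Groups did not overlap in 10 rows (4.65%, against 3.18% of all rows), 8 of them lower. With the rows of a locus summed, 10 of 100 loci had an unadjusted p under 0.05 (1 higher, 9 lower), against 5.10% of all summed features. Counted by locus, the share was thus above that of the table, and none of these loci had an adjusted p under 0.05. The locus count was not repeated with a library left out or under another scaling. Of these loci, 3 were among the 7 that varied together, and those 3 are not independent of each other. The count of rows at an unadjusted p under 0.05 turned on single libraries. It was 27 without Khdc3-null replicate 3 (116 of all 1884 rows) and 19 without descendant replicate 2 (106 of 1886). It was 17 without wild type replicate 1 (103 of 1889) and 15 without descendant replicate 1 (107 of 1886). Lower counts were 8 without Khdc3-null replicate 4 (88 of 1885) and 5 without Khdc3-null replicate 1 (125 of 1887). Without wild type replicate 3 it was 5 (70 of 1883), and without wild type replicate 2 it was 4 (62 of 1884). Without Khdc3-null replicate 1 the median differences were -0.04 over band-named and 0.01 over all rows.

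The rows of smallest p in that comparison belonged to 3 loci. Row 10-qC1-2617.1 had 145, 159, 182 and 174 RPM in wild type and 118, 110, 141 and 118 RPM in Khdc3-null libraries, while descendants had 134, 173, 147 and 123 RPM. Every Khdc3-null library was below every wild type library, with a log2 difference of -0.43 ± 0.15 (SE, n = 4 and 4, limma adjusted p = 0.830). Its partner 10-qC1-2617.2 differed by -0.59 ± 0.21 (SE), with overlapping groups, 746 ± 159 RPM (SD, n = 4) in wild type and 495 ± 111 RPM (SD, n = 4) in Khdc3-null. Row 3-qA3-2052.1 had 334, 385, 545 and 389 RPM in wild type and 282, 266, 377 and 280 RPM in Khdc3-null libraries, which overlap, and its near-equal partner 3-qA3-2052.2 had 418 ± 91.4 and 316 ± 48.2 RPM (SD, n = 4 each). Row 17-qA3.3-27363.1 had 703, 793, 820 and 694 RPM against 662, 652, 617 and 588 RPM, which do not overlap, at a log2 difference of -0.26 ± 0.10 (SE, limma adjusted p = 0.919). Of the 13 rows, 5 were rows of the 7 loci that varied together, 3-qA2-617 and 2-qG3-1029 among them, and those loci varied within each group as well.

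In descendants against wild type, 1 band-named row had an unadjusted p under 0.05, 0.465% against 4.08% of all rows. It was 14-qC1-1261.1, with 608, 569, 654 and 511 RPM in wild type and 397, 486, 485 and 465 RPM in descendant libraries. All descendant values lay under the lowest wild type value (log2 difference -0.35 ± 0.12 SE, limma adjusted p = 0.946). Khdc3-null libraries had 414, 447, 565 and 495 RPM, so this row was also lower on average in them. limma-voom gave 3 rows at an unadjusted p under 0.05, all lower (86 of all 1889 rows). Median-of-ratios scaling gave 2, 1 higher and 1 lower (82 of all 1888 rows). Groups did not overlap in 3 rows (1.40%, against 2.75% of all rows), and 1 of 100 summed loci had an unadjusted p under 0.05, against 4.19% of all summed features. Leaving out 1 library gave 1 to 9 such rows, the 9 without descendant replicate 2 (103 of all 1886 rows). There were 3 without wild type replicate 3 or 4 or descendant replicate 1. There were 2 without wild type replicate 1 or 2, Khdc3-null replicate 1 or descendant replicate 3. Over all rows, such fits gave 53 (without wild type replicate 3) to 111 (without Khdc3-null replicate 1). The next rows by p were 10-qB5.1-5404.1 (111 ± 14.8 RPM in wild type, 85.1 ± 15.8 RPM in descendants, SD, n = 4 each), 18-qE1-1295.1 (307 ± 65.7 and 395 ± 86.0 RPM), 6-qF3-8009.1 (106 ± 24.6 and 82.0 ± 8.88 RPM) and 2-qE1-35981.1 (351 ± 58.1 and 292 ± 30.7 RPM), each with overlapping groups. The median difference was -0.04 over band-named and -0.02 over all rows.

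In descendants against Khdc3-null, 5 band-named rows had an unadjusted p under 0.05 (4 higher, 1 lower), 2.33% against 6.41% of all rows. The balance of higher and lower rows depended on the scaling. Median-of-ratios scaling gave 6 such rows, 2 higher and 4 lower (126 of all 1888 rows). The median difference under it stayed positive, at 0.06 over band-named and 0.03 over all rows. limma-voom gave 4. Groups did not overlap in 5 rows (2.33%, against 3.02% of all rows), and 3 of 100 summed loci had an unadjusted p under 0.05, against 6.80% of all summed features. The number of rows at an unadjusted p under 0.05 was 13 without Khdc3-null replicate 1 (4 higher, 9 lower, beside 143 of all 1887 rows). It was 11 without Khdc3-null replicate 3 (132 of 1884) and 8 without descendant replicate 3 (158 of 1888). It was 3 without wild type replicate 2 or 4, Khdc3-null replicate 4 or descendant replicate 2 (108 to 126 over all rows). The F test over the 3 groups had 5 band-named rows at an unadjusted p under 0.05, 2.33% against 4.92% of all rows. The median difference was 0.08 over band-named and 0.05 over all rows, and without Khdc3-null replicate 1 it was 0.02 and -0.01.

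The row of smallest p there was 1-qC1.3-637.1. It had 92.5, 91.0, 87.0 and 78.4 RPM in descendant, 41.3, 59.3, 72.3 and 64.8 RPM in Khdc3-null and 75.4, 64.5, 65.2 and 75.2 RPM in wild type libraries. Each descendant library was above every library of both other groups (log2 difference from Khdc3-null 0.57 ± 0.19 SE, limma adjusted p = 0.658). The 3 near-equal rows of 17-qA3.3-26735 did not overlap between these groups, and 17-qA3.3-26735.2, for example, had 230, 261, 234 and 235 RPM in descendants and 179, 192, 213 and 191 RPM in Khdc3-null libraries (0.31 ± 0.12 SE, limma adjusted p = 0.722). As they split their reads almost equally, they count as 1 observation. Row 5-qG2-2301.1 was at 175 ± 38.3 RPM (SD, n = 4) in descendants and 244 ± 54.3 RPM (SD, n = 4) in Khdc3-null, and 3-qA3-2052.1 at 382 ± 50.2 and 301 ± 50.8 RPM (SD, n = 4 each), both with overlapping groups.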

How the data were processed

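The authors deposited a table of 12 libraries in RPM, reads per 1000000 mapped reads, with 1 added to each value. Alignment was to mm10 with Bowtie2 per the submitters' processing notes, and the version and the handling of reads that match several places are not given in the sources used here. Per the labels' protocols, RNA was isolated with the PicoPure kit and libraries made with the NEXTFLEX small RNA kit. After 1 was taken away, 100% of values were whole multiples of a step per library within 0.01 reads, which gave the mapped reads. Reads carry no molecular identifiers, so limits from counts cover counting error only.

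Rows that reached 1.61 RPM, or 10 reads at the median depth, in 4 or more libraries were tested, 1889 of 2030. One limma 3.58.1 model (R 4.3.3, variance trend) on log2(RPM + 1) covered the 3 group means of all 12 libraries, with Benjamini-Hochberg adjustment over all tested rows and a threshold of 0.05. Other settings were added constants of 0.5 and 5, other filters, scalings and fits (limma-voom on the recovered reads), rows of a locus summed, and each library left out. limma was also run on simulated data, and how often it found changes of a given size is not reported here. The counting CV is that of Poisson reads. Replicates were numbered in accession order and pair nothing.

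Rows were named by rule: the 10 most abundant (groups weighted equally), the 5 of smallest p per comparison, and the 5 steadiest and 5 most variable. Summed loci, loci that varied together and rows given as examples of a locus were chosen after values were seen. The members and lists were chosen with earlier results of these data known.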

Additional observations from a re-analysis of the deposited data

Results flagged for a closer look

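Among 33 named rows and 3 shares, each in 3 groups of 4 libraries, 12 of 108 groups had 1 library far from the other 3, the gap to the nearest taking up most of the group's range. Chance flags about 1 in 20 groups of unselected rows, but these rows include those chosen as most variable or of smallest p, and rows of the same locus, so the 2 rates cannot be compared.

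Of these, 4 were Khdc3-null replicate 3 at abundant rows. Row 12-qE-23911.1 had 853 RPM there, against 1001 to 1017 RPM in the other 3 libraries. Rows 3-qA3-2052.1 and 3-qA3-2052.2 had 377 and 388 RPM, against at most 282 and 297 RPM, and 2-qE1-35981.1 had 385 RPM against 317 to 326 RPM. Row 14-qA3-284.1 in the same library had 17.7 RPM against 1.84 to 3.70 RPM.

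Khdc3-null replicate 1 was low for 10-qB4-6488.1, at 205 RPM against 246 to 252 RPM, and high for 11-qB1.3-590.1, at 8.68 RPM against at most 1.03 RPM. Descendant replicate 1 had 193 RPM of 10-qB4-6488.1 against 211 to 214 RPM, and 9.86 RPM of 11-qE1-3997.3 against at most 0.897 RPM. Wild type replicate 1 had 274 RPM of 5-qG2-2301.1 against 175 to 186 RPM. Row 1-qD-2017.2 stood apart in 2 groups, at 8.50 RPM in Khdc3-null replicate 4 against at most 1.02 RPM and at 4.45 RPM in descendant replicate 2 against at most 0.538 RPM. The cause of these values was not tested.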

How the results depend on the processing

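No band-named row was called in the 3 comparisons or the F test under any other setting run, while 1 other row of the table was called in Khdc3-null against wild type with no filter, without a variance trend (F test too) and without Khdc3-null replicate 1. No named log2 difference changed sign under a setting run, of which some, such as the fit without a trend, cannot move it. As these rows were chosen for small p, a change of sign was unlikely from the start. Counts at an unadjusted p under 0.05 moved. For Khdc3-null against wild type, the 13 rows became 17 with no filter, 14 with an added constant of 0.5 and 8 under median-of-ratios scaling. They became 5 without a variance trend and 4 to 27 with 1 library left out. The whole table gave 97, 94, 84, 81 and 62 to 125 in that order. For descendants against wild type, the 1 row became 2 with no filter and 2 under median-of-ratios scaling. It became 2 under scaling to listed reads without rRNA, 3 with limma-voom and 1 to 9 with 1 library left out. The whole table gave 81, 82, 80, 86 and 53 to 111 in that order. For descendants against Khdc3-null, the 5 rows became 8 with no filter and 3 without a variance trend. With rows of a locus summed there were 3 of 100 loci, and with 1 library left out 3 to 13 rows. The whole table gave 138, 104, 112 (of 1646 summed features) and 101 to 158 in that order. Over listed reads without rRNA the shares were 12.2% in wild type, 11.4% in Khdc3-null and 12.0% in descendants, and over mapped reads 4.86% in wild type, 4.51% in Khdc3-null and 4.70% in descendants. The share of the first 10 rows was 34.1% with rows of a locus summed and 23.5% without the most abundant row. With rows of a locus summed, 19 loci held 50% of reads, and the median within-group CV was 15.9%. Without 1 library each, the shares ranged from 5.27% to 5.41% in wild type, 4.84% to 5.15% in Khdc3-null and 4.91% to 5.15% in descendants. No paired analysis was possible because the labels carry no shared replicate numbers. Depth limits rows under 10 RPM most, where counting error alone gives a median CV of 20.8%.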
